A study of Mus musculus with 32 samples.

Results

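The genes of MHC class II antigen presentation were followed in 4 mouse macrophage lines by microarray. The set holds 7 genes: H2-Aa, H2-Ab1, H2-Eb1, H2-DMa, H2-DMb1, Cd74 and Ciita. A gene was read from probe sets that the array annotation assigns to that gene alone, and 6 of the 7 had 1, among 19938 genes measured in all. H2-DMb1 is covered by 1 probe set that also names a second gene, so it has no value here. Each line is named after the receptor for CSF-1 that it expresses, on a background labelled M-/-. CSF-1 keeps macrophages alive and dividing. Per the series' design text, Y721F and 3AB receptors lack Tyr-721, which is phosphorylated in the WT and 3ABY721 receptors. In the steady-state experiment Y721F, 3AB, 3ABY721 and WT cells were grown continuously in CSF-1 or starved of it. In the time course Y721F and WT cells were starved overnight and given CSF-1 for 0, 20, 60 or 180 min. The medium of all lines held 10% newborn calf serum, with human CSF-1 at 120 ng/mL unless withheld. Each of the 16 groups has 2 arrays, numbered I and II, 32 in all. Every receptor comes with its own line, so the receptor and any other difference between the lines cannot be told apart, and the labels do not say whether a line is 1 clone.

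Class II molecules carry peptides from the endosomal pathway to the cell surface and show them to CD4+ T cells. The α and β chains pair in the endoplasmic reticulum around the invariant chain, which is cleaved in endosomes, and the H2-M dimer then exchanges its remnant for a peptide. The transactivator CIITA does not bind DNA itself. It docks on factors bound to the X and Y boxes of class II promoters, and in macrophages its own gene responds to interferon-γ.

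Of these genes H2-Aa encodes the α chain of the I-A molecule and H2-Eb1 the β chain of the I-E molecule. Promoter sequences from RefSeq (GRCm38.p6) were at hand for 4 of the 7 genes, with 5 start sites: H2-Aa, H2-Eb1, H2-DMb1 and both starts of H2-DMa. H2-Ab1, Cd74 and Ciita had no entry. H2-Aa and H2-Eb1 hold the Y box and have values on these arrays. The 150 bases before the start of H2-Aa (chr17:34287824-34287973, minus strand) and of H2-Eb1 (chr17:34305717-34305866, plus strand) are shown, with the Y box in capitals.
H2-Aa: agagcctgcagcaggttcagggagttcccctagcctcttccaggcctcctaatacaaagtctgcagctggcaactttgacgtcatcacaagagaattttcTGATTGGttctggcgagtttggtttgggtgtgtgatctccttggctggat
H2-Eb1: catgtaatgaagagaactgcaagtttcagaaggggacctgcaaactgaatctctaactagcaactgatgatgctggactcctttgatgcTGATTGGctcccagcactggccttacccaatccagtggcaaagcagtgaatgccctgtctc
The Y box was searched as TGATTGG on both strands from 250 bases before to 50 bases after each start. It occurred in H2-Aa from -50 to -44, in H2-Eb1 from -61 to -55 and in H2-DMb1 from -63 to -57, counted from the start, each time on the gene's own strand. Of 32851 mouse promoters of this length, 2568 hold it, or 7.82%. Its core ATTGG, which lies within that motif, was found in 37.4% of promoters and in these 3 genes, and also at 1 of the H2-DMa starts, from -198 to -194. The X box, searched as AGNAACAG, was in 7.5% of promoters and in none of the 5 windows of these genes. A match is a string of letters and not a measured binding site. An exact search also misses variants of a box, so the lack of a match does not show that the box is absent.

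H2-Aa lies at chr17:34282744-34287823 (GRCm38.p6). H2-Ab1, the β chain of I-A, lies at chr17:34263227-34269418, and H2-Eb1 at chr17:34305867-34316674. H2-DMa, at chr17:34119693-34139101, and H2-DMb1, at chr17:34153191-34160229, encode the chains of the H2-M peptide exchanger. Cd74, the invariant chain, lies at chr18:60803849-60812652, and Ciita at chr16:10480014-10531064. The 5 H2 genes are thus neighbours on chromosome 17, while Cd74 and Ciita lie elsewhere.

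By Cd68 and Adgre1 the libraries read as macrophages. Cd68 lay between 12.58 and 13.27 on the log2 signal scale on the 32 arrays and Adgre1 between 11.29 and 12.82. Csf1r lay between 12.72 and 13.41. Each line is defined by the CSF-1 receptor it expresses, so the Csf1r signal is no separate sign of cell identity. Among the 9 macrophage markers measured, Mertk, between 5.43 and 10.26, and Fcgr1, between 5.99 and 11.92, varied far more. Macrophage markers that were lower in Y721F cells are given below. B cells and dendritic cells also carry class II. Of 6 B cell markers, Cd79b, Pax5 and Blk lay above the 20th percentile of all genes on 32 of 32 arrays, Cd79a on 1, and Ms4a1 and Ebf1 on 0. Of 10 dendritic cell markers, Flt3, Zbtb46, Ccr7, Itgax, Siglech, Batf3 and Irf4 lay above it on 32 arrays, Cd209a on 31, Xcr1 on 26 and Clec9a on 2. Replicate arrays correlated across genes with r between 0.986 and 0.996, and array medians ran from 5.97 to 6.22. These are bulk cultures, so fewer class II-expressing cells and less RNA per cell cannot be told apart.

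The 6 measured members lay above the 20th percentile, at 4.87, on all 32 arrays, and their group means spanned a wide range. Passing that cutoff does not by itself show expression, as the B cell marker Pax5 lay between 5.31 and 6.06. In grown Y721F cells H2-Aa, H2-Ab1, H2-DMa and Ciita lay within or below that range. Ciita also had means within it in other groups, such as grown WT (5.57) and starved Y721F cells (5.78). H2-Aa ran from 5.03 in grown Y721F cells to 9.50 in starved 3AB cells, and H2-Ab1 from 5.66 in grown Y721F cells to 9.46 in starved 3ABY721 cells. H2-Eb1 ran from 6.81 in grown Y721F to 8.88 in starved 3AB cells. H2-DMa and Cd74 were also lowest in grown Y721F cells, with means of 5.70 and 7.21, and were highest in WT cells at 0 min of the time course, with 8.88 and 11.13. Ciita spanned the least, from 5.57 in grown WT cells to 7.04 in starved 3AB cells. Neighbouring groups in these orders often overlapped, since the 2 arrays of a group differed by a median of 0.18 (Ciita) to 0.50 (H2-DMa) and by up to 2.51 (H2-Aa in starved WT cells).

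In all 4 lines the 6 genes averaged less in cells grown in CSF-1 than in starved cells, and in WT cells 3 of them fell by the test. A gene is called here, and said to have risen or fallen or to be higher or lower, where limma gives an adjusted p under 0.05 over all 19938 genes and a fold above 1.5. H2-Aa read 6.68 and 7.16 in grown WT cells, against 10.72 and 8.21 in starved WT cells. H2-Ab1 read 6.83 and 6.74 in grown WT cells, against 10.54 and 8.06 in starved ones. Both genes were below the starved arrays in each grown array, and starved array I stood far above starved array II. H2-Eb1 read 6.80 and 7.37 in grown WT cells, against 9.31 and 7.41 in starved ones. H2-DMa read 6.73 and 6.63, against 8.31 and 7.51. Cd74 read 8.89 and 9.52 in grown WT cells, against 10.89 and 10.12 in starved ones, and Ciita 5.51 and 5.64, against 7.31 and 5.98. None of the 6 overlapped between the conditions, where 24.7% of all genes had both grown arrays below both starved ones.

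H2-Ab1 fell 5.72-fold in grown WT cells (log2 difference -2.51, SE 0.68, adjusted p = 0.0437), H2-DMa 2.35-fold (-1.23, SE 0.27, adjusted p = 0.015) and Ciita 2.10-fold (-1.07, SE 0.29, adjusted p = 0.0405). Over all genes 3.01% fell in this comparison. H2-Aa measured -2.55 (SE 0.73) and Cd74 -1.30 (SE 0.37), both with an adjusted p of 0.0524 that missed the threshold, and H2-Eb1 measured -1.28 (adjusted p = 0.179). The median of the 6 was -1.29, beside -0.03 over all genes. In one fit of the 32 arrays H2-DMa lost its call (adjusted p = 0.0541) and H2-Aa (adjusted p = 0.0303) and Cd74 (adjusted p = 0.0392) gained one, which made 4. Without starved array I, 0 of the 6 passed, with H2-Ab1 at -1.28, H2-DMa at -0.83 and Ciita at -0.41, and 412 of 19938 genes were called in either direction. Without grown array I the members called were also 0 (366 genes in all), without grown array II 2 (1994 genes), and without starved array II 5 (689 genes).

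In 3AB cells the differences were of similar size and none was called. H2-Ab1 read 7.17 and 7.29 in grown 3AB cells, against 8.80 and 9.92 in starved 3AB cells. Cd74 read 8.54 and 8.74, against 9.97 and 10.76, and Ciita 5.99 and 5.84, against 6.87 and 7.22. Of the other members, H2-Aa read 7.38 and 7.85, against 8.89 and 10.12, H2-Eb1 7.15 and 7.32, against 8.47 and 9.28, and H2-DMa 6.98 and 7.06, against 7.81 and 8.35. The 6 genes did not overlap between grown and starved 3AB cells, as for 23.3% of all genes in that direction. Their log2 differences ran from -2.13 (H2-Ab1) to -1.06 (H2-DMa), with a median of -1.68 beside -0.01 over all genes. In limma 0 of 6 passed, while 0.256% of all genes fell. All 6 had an unadjusted p under 0.05, as did 2394 of 19938 genes in either direction. Cd74 came nearest, at -1.72 (SE 0.37, adjusted p = 0.0504).

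In 3ABY721 cells the replicate arrays lay further apart. H2-Aa read 8.60 and 7.01 in grown 3ABY721 cells, against 10.14 and 8.52 in starved ones, and H2-Ab1 read 8.76 and 7.30, against 10.36 and 8.55. Array I was above array II for the 6 genes in both conditions, so that grown array I overlapped starved array II. H2-DMa read 6.71 and 6.17, against 7.58 and 7.15, and Ciita 6.15 and 6.03, against 6.89 and 6.66. Those 2 genes alone did not overlap, where 22.1% of all genes had both grown arrays lower. H2-Eb1 read 8.12 and 7.35 in grown cells, against 9.40 and 8.02 in starved ones, and Cd74 11.12 and 10.39, against 11.49 and 10.73. The differences ran from -1.52 (H2-Aa) to -0.36 (Cd74), with a median of -0.95 beside 0.00 over all genes. By limma 0 of 6 passed, and 0.672% of all genes fell. Of the 6, 2 had an unadjusted p under 0.05, beside 2431 of 19938 genes.

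Y721F cells were already low when starved, and whether signals this low limited a further fall was not tested. H2-Aa read 5.14 and 4.92 in grown Y721F cells, against 5.05 and 6.20 in starved ones, and so overlapped. H2-Ab1 read 5.65 and 5.66, against 6.22 and 6.61, and Cd74 7.09 and 7.33, against 7.59 and 8.48. H2-DMa read 5.73 and 5.66, against 6.13 and 6.66, H2-Eb1 7.01 and 6.62, against 6.89 and 7.28, and Ciita 5.72 and 5.65, against 5.80 and 5.76. H2-Ab1, H2-DMa, Cd74 and Ciita did not overlap, where 22.3% of all genes had both grown arrays lower. Differences ran from -0.82 (Cd74) to -0.09 (Ciita), with a median of -0.65 beside 0.00 over all genes. In limma 0 of 6 passed, and 1.46% of all genes fell. Of the 6, 2 had an unadjusted p under 0.05, beside 4285 of 19938 genes.

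Whether CSF-1 acted differently between lines was tested as the difference of the growth effects. Y721F minus WT was above 0 for the 6 genes, from 0.47 (Cd74) to 1.95 (H2-Aa, SE 1.03, adjusted p = 0.444), and 0 of 6 were called, beside 0.0903% of all genes in either direction. One member, Ciita, had an unadjusted p under 0.05, beside 2527 of 19938 genes. Without starved WT array II, Ciita passed at 1.64 (adjusted p = 0.0129). For 3AB minus 3ABY721 the differences lay between -1.37 (Cd74) and -0.13 (H2-DMa), with 0 of 6 called, beside 0.00502% of all genes. Of the 6, 1 had an unadjusted p under 0.05, beside 440 of 19938 genes. These arrays did not resolve a difference between the growth effects of these lines.

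**Figure D1:**
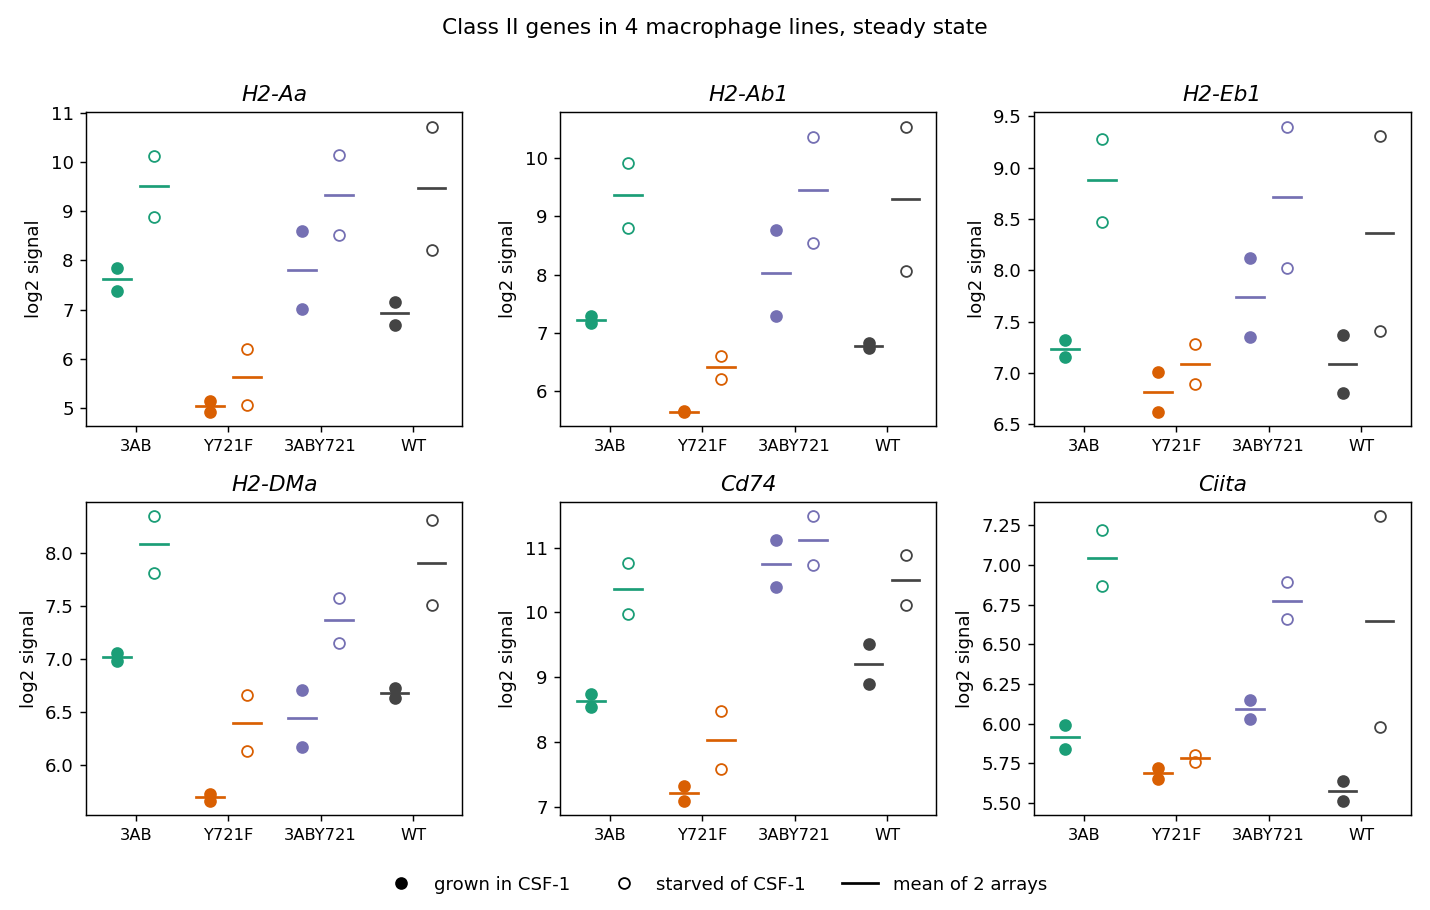
Log2 signal of the 6 measured class II genes in 4 macrophage lines, with 1 panel per gene. Filled points are arrays of cells grown in CSF-1, open points arrays of starved cells and bars the mean of 2 arrays; grown Y721F cells had the lowest mean for each gene except Ciita, whose lowest mean was 5.57 in grown WT cells, and the open points of WT lie up to 2.51 apart.

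Among the comparisons made, the largest differences between lines set Y721F apart from WT and 3AB in the steady-state experiment. Y721F was not tested against 3ABY721. Starved Y721F cells read 5.05 and 6.20 for H2-Aa, against 10.72 and 8.21 in starved WT cells. For H2-Ab1 they read 6.22 and 6.61, against 10.54 and 8.06, and for Cd74 7.59 and 8.48, against 10.89 and 10.12. None of the 6 genes overlapped between these groups, beside 30.8% of all genes with both Y721F arrays lower. H2-Aa was 14.3-fold lower in Y721F (log2 difference -3.84, SE 0.73, adjusted p = 0.00284) and H2-Ab1 7.39-fold (-2.88, SE 0.68, adjusted p = 0.0111). Cd74 was 5.54-fold lower (-2.47, SE 0.37, adjusted p = 0.000543) and H2-DMa 2.86-fold (-1.52, SE 0.27, adjusted p = 0.00173). That made 4 of 6 lower in Y721F, beside 7.66% of all genes. Ciita, at -0.87 (adjusted p = 0.051), and H2-Eb1, at -1.28 (adjusted p = 0.106), missed the threshold. Ciita passed under quantile normalization (-1.02, adjusted p = 0.0342), median centring (-0.99, adjusted p = 0.023) and the filter on dim genes (adjusted p = 0.0473). The median of the 6 was -1.99, beside 0.00 over all genes.

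Starved WT array I again carried part of this difference. Without it 3 of 6 were lower in Y721F, with H2-Aa at -2.59 (adjusted p = 0.034), H2-DMa at -1.12 (adjusted p = 0.0243) and Cd74 at -2.09 (adjusted p = 0.00999), and H2-Ab1 measured -1.65 (adjusted p = 0.112). Of all genes 2092 were called in either direction there. Without starved Y721F array I the count was also 3 (2054 genes), with H2-Ab1 at -2.69 (adjusted p = 0.0639). Without starved WT array II all 6 passed (1732 genes), Ciita at -1.53 and H2-Eb1 at -2.23.

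Grown Y721F cells were lower than grown WT cells in 2 of 6 genes, beside 4.94% of all genes. Cd74 read 7.09 and 7.33 in grown Y721F cells, against 8.89 and 9.52 in grown WT cells, a 3.99-fold difference (-2.00, SE 0.37, adjusted p = 0.00349). H2-DMa read 5.73 and 5.66, against 6.73 and 6.63, a 1.98-fold difference (-0.98, SE 0.27, adjusted p = 0.0302). H2-Aa and H2-Ab1 lay below both WT arrays too, at -1.89 (adjusted p = 0.118) and -1.13 (adjusted p = 0.334). The SE of H2-Ab1, 0.68, draws on the spread in all groups of the experiment. Its SD was 0.01 in grown Y721F and 0.06 in grown WT cells, but 1.75 in starved WT cells. H2-Eb1 overlapped between the lines, and Ciita, at 0.11 (adjusted p = 0.856), was above in both Y721F arrays. The 4 genes below in both arrays compare with 19.2% of all genes. The median of the 6 was -1.06, beside 0.05 over all genes. Leaving out any of the 4 arrays left Cd74 as the only member called, with H2-DMa between -1.04 and -0.93, while 862 to 2449 genes were called in either direction.

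3AB cells also lack Tyr-721, and their class II genes read far above those of Y721F. Against starved Y721F cells, 6 of 6 were higher in starved 3AB cells, beside 5.08% of all genes, and none overlapped, beside 26.8%. H2-Aa read 8.89 and 10.12 in 3AB, against 5.05 and 6.20 in Y721F, a 14.7-fold difference (3.88, SE 0.73, adjusted p = 0.00321). H2-Ab1 differed by 2.94 (SE 0.68, adjusted p = 0.0124), Cd74 by 2.33 (SE 0.37, adjusted p = 0.00093) and H2-Eb1 by 1.79 (SE 0.52, adjusted p = 0.042). H2-DMa differed by 1.68 (SE 0.27, adjusted p = 0.000901). Ciita read 6.87 and 7.22 in 3AB, against 5.80 and 5.76 in Y721F, which put the log2 difference at 1.27 (SE 0.29, adjusted p = 0.0106). The median was 2.06, beside -0.03 over all genes. H2-DMa and Cd74 passed under each left-out array. The count was 3 without either starved Y721F array (1365 and 957 genes in all, in either direction), 5 without 3AB array I (1587 genes) and 2 without 3AB array II (722 genes), where H2-Aa measured 3.27 (adjusted p = 0.0656).

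Grown 3AB cells were above grown Y721F cells in both arrays for the 6 genes, beside 23.1% of all genes, and 3 passed the test, beside 4.65%. H2-Aa read 7.38 and 7.85 in 3AB, against 5.14 and 4.92 in Y721F (2.58, SE 0.73, adjusted p = 0.0354). Cd74 read 8.54 and 8.74, against 7.09 and 7.33 (1.43, SE 0.37, adjusted p = 0.0232). H2-DMa read 6.98 and 7.06, against 5.73 and 5.66 (1.32, SE 0.27, adjusted p = 0.00479). H2-Ab1, at 1.58, H2-Eb1, at 0.42, and Ciita, at 0.23, did not pass. The median of the 6 was 1.38, beside -0.05 over all genes. With any of the 4 arrays left out, only H2-DMa passed, and 948 to 2277 genes were called in either direction. These comparisons share their Y721F arrays with those against WT, so both rest on the same low arrays.

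The lines 3AB and 3ABY721 differ by Tyr-721 according to the series' design text, and in starved cells 0 of 6 class II genes were called between them, beside 0.371% of all genes lower and 0.246% higher. The log2 differences ran from -0.74 (Cd74) to 0.71 (H2-DMa), with 95% intervals from -1.38 to 1.73 for H2-Aa and from -1.55 to 1.36 for H2-Ab1. One member, H2-DMa, had an unadjusted p under 0.05, beside 1680 of 19938 genes. H2-DMa alone was above in both arrays, beside 20.5% of all genes. Their median was 0.17, beside 0.00 over all genes. Those intervals leave room for several-fold differences either way.

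Cd74 was the exception in grown cells. It read 8.54 and 8.74 in grown 3AB cells, against 11.12 and 10.39 in grown 3ABY721 cells, a 4.33-fold lower level (-2.11, SE 0.37, adjusted p = 0.00925). It was 1 of 6 called, beside 0.642% of all genes lower, while H2-Aa measured -0.19, H2-Ab1 -0.80, H2-Eb1 -0.50, H2-DMa 0.58 and Ciita -0.17, with a median of -0.35 beside -0.01 over all genes. Cd74, H2-Ab1, H2-Eb1 and Ciita lay below both 3ABY721 arrays, beside 26% of all genes. The call for Cd74 was lost without 3ABY721 array I (-1.75, adjusted p = 0.158), without 3AB array I (-2.01, adjusted p = 0.119) and without 3AB array II (-2.21, adjusted p = 0.0692).

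Between 3ABY721 and WT, the lines that keep the tyrosine, 0 of 6 were called in either condition. In grown cells 0.0903% of all genes were higher in 3ABY721 and 0.166% lower. Cd74 read 11.12 and 10.39 in grown 3ABY721 cells, against 8.89 and 9.52 in grown WT cells (1.55, SE 0.37, adjusted p = 0.105), and it passed without WT array II (1.86, adjusted p = 0.0343). H2-Ab1 measured 1.24 and H2-Aa 0.89, and the median was 0.77, beside 0.01 over all genes. Cd74 was the sole member with an unadjusted p under 0.05, beside 2376 of 19938 genes. Of the 6, 3 were above in both arrays, beside 22.2% of all genes. In starved cells the differences lay between -0.55 (H2-DMa) and 0.61 (Cd74), with a median of 0.14 beside -0.02 over all genes, with 0 at an unadjusted p under 0.05, beside 0.331% of all genes called higher and 1.48% lower. All of these overlapped.

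**Figure D2:**
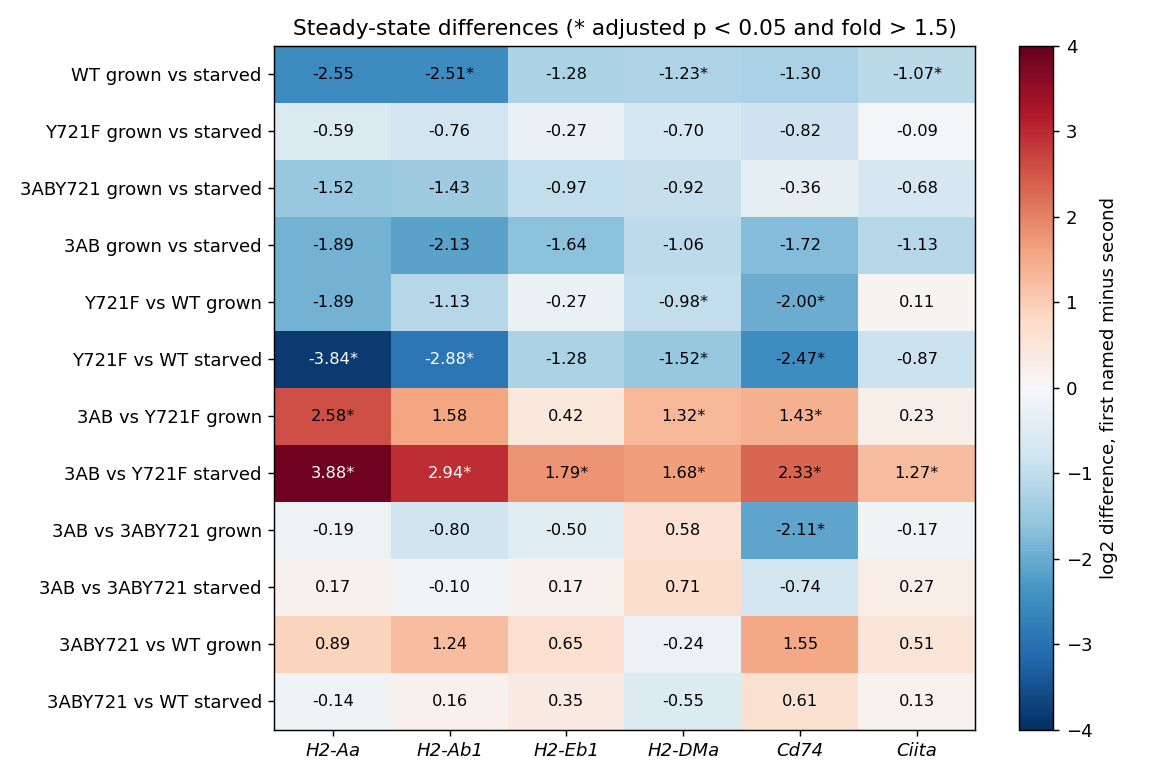
Log2 difference of each class II gene (columns) in 12 steady-state comparisons (rows), the first named group minus the second, with an asterisk where a gene is called. Against starved Y721F cells, starved 3AB cells are higher in 6 of 6 genes, while 3AB against 3ABY721 shows a single call, Cd74 in grown cells.

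The low class II level of Y721F was much less marked in the time course. At 0 min, cells of both experiments were labelled starved of CSF-1. H2-Aa read 8.35 and 8.09 in Y721F cells at 0 min, against 8.78 and 8.94 in WT cells at 0 min. Cd74 read 10.98 and 10.52 in Y721F, against 11.35 and 10.92 in WT, and so overlapped. H2-Ab1 read 7.20 and 7.29, against 7.73 on both WT arrays, and Ciita 6.50 and 6.19, against 6.66 and 6.79. None of the 6 was called at 0 min, beside 0.306% of all genes lower. Differences ran from -1.19 (H2-DMa) to -0.20 (H2-Eb1) with a median of -0.44, beside -0.02 over all genes, and 5 of 6 did not overlap, beside 21.9%. The H2-Aa gap of Y721F minus WT was therefore -3.84 in steady-state starved cells and -0.64 at 0 min. For Cd74 it was -2.47 and -0.39, and for H2-Ab1 -2.88 and -0.48.

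That difference of gaps was tested in a fit of the 32 arrays, added after the values had been seen. Cd74 passed, at -2.08 (SE 0.50, adjusted p = 0.035), as 1 of 6 members, beside 0.813% of all genes lower. H2-Aa measured -3.20 (SE 0.92, adjusted p = 0.0691), H2-Ab1 -2.40 (adjusted p = 0.141) and H2-Eb1 -1.08 (adjusted p = 0.385). H2-DMa, with gaps of -1.52 and -1.19, measured -0.33 (adjusted p = 0.765), and Ciita measured -0.49 (adjusted p = 0.568). Cd74 lost its call without Y721F steady-state array I, without WT steady-state array I and without each of the 4 arrays at 0 min, at values from -2.32 to -1.64, and under quantile normalization. The same line differed between the experiments. The mean of steady-state starved Y721F cells minus that at 0 min was -2.59 for H2-Aa, -0.83 for H2-Ab1, -0.65 for H2-Eb1, -1.30 for H2-DMa, -2.71 for Cd74 and -0.57 for Ciita. In WT cells it was 0.61 for H2-Aa, 1.57 for H2-Ab1, 0.43 for H2-Eb1, -0.97 for H2-DMa, -0.63 for Cd74 and -0.08 for Ciita. The WT value of H2-Aa rests on steady-state array I at 10.72, since array II, at 8.21, lay below both 0 min arrays. No array links the experiments, so what differed between their starved cultures was not tested.

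**Figure D3:**
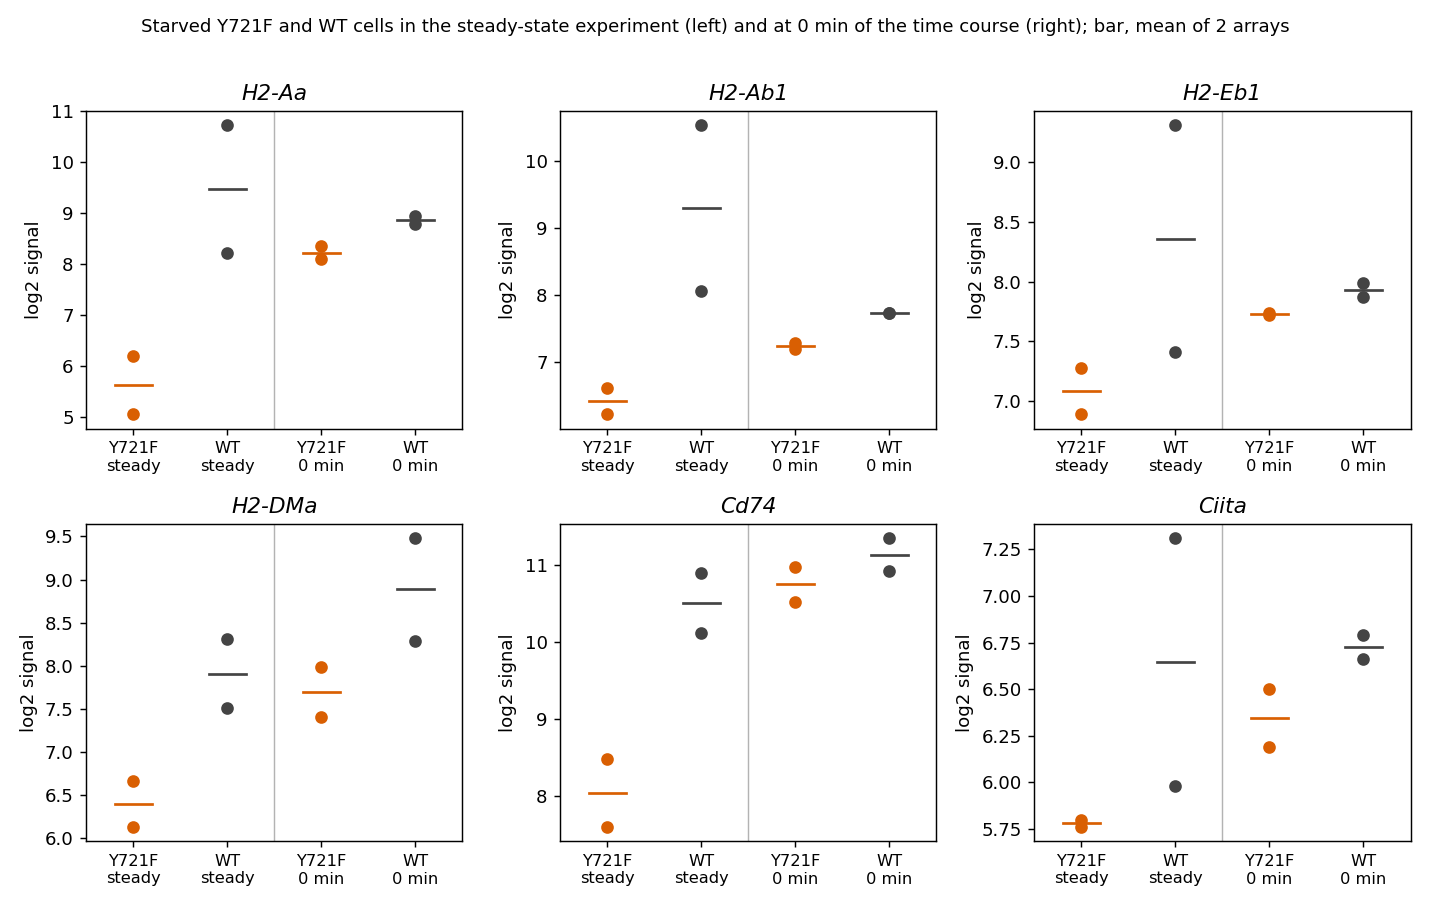
Log2 signal of the 6 genes in starved Y721F and WT cells of the steady-state experiment (left of the grey line) and at 0 min of the time course (right); points are arrays and bars the mean of 2. H2-Aa of Y721F lies at 5.05 and 6.20 on the left and at 8.35 and 8.09 on the right.

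When CSF-1 was given back to starved cells, the 6 genes averaged below their 0 min level at each later time in both lines, and none was called. In WT cells H2-Aa read 8.78 and 8.94 at 0 min, 8.05 and 8.51 at 20 min, 7.37 and 8.39 at 60 min, and 8.47 and 8.97 at 180 min. H2-Ab1 read 7.73 on both arrays at 0 min, 7.09 and 7.42 at 20 min, 6.33 and 7.68 at 60 min, and 7.63 and 7.74 at 180 min. The lowest values were those of array I at 60 min, and at 180 min the arrays of both genes overlapped those at 0 min. H2-Eb1 read 7.87 and 7.99 at 0 min, 7.45 and 7.63 at 20 min, 6.77 and 7.85 at 60 min, and 7.71 and 8.0 at 180 min. Cd74 read 11.35 and 10.92, then 10.85 and 10.73, then 9.89 and 10.73, and at 180 min 11.13 and 10.91.

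Against 0 min, the WT medians of the 6 genes were -0.37 at 20 min, -0.69 at 60 min and -0.13 at 180 min, each beside a median over all genes between -0.01 and 0.00. In limma 0 of 6 fell at each time, where 0.00502%, 0.0853% and 0.782% of all genes fell at 20, 60 and 180 min. At 60 min 4 members had an unadjusted p under 0.05: Cd74 at -0.83 (adjusted p = 0.212), H2-Aa at -0.98 (adjusted p = 0.285), Ciita at -0.66 (adjusted p = 0.384) and H2-Eb1 at -0.62 (adjusted p = 0.408). At 20 min there were 0 and at 180 min 1. Over all 19938 genes, 436, 2361 and 2918 had such a p at 20, 60 and 180 min. Both arrays lay below both at 0 min for 4 of 6 genes at 20 min, 5 at 60 min and 1 at 180 min, beside 13.8%, 21.4% and 21.4% of all genes. At 60 min the arrays disagreed in size. Without 60 min array II, 5 of 6 fell, with H2-Aa at -1.49 (adjusted p = 0.0438) and Ciita at -1.19 (adjusted p = 0.0181), but 698 of 19938 genes were then called in either direction. With the replicate number as a block H2-Aa passed (adjusted p = 0.0358), as 1 of 745 genes called. Without 60 min array I the differences were between -0.47 (H2-Aa) and -0.05 (H2-Ab1).

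Ciita had its lowest mean at 180 min in both lines. It read 6.66 and 6.79 at 0 min in WT cells, 6.17 and 6.66 at 20 min, 5.53 and 6.60 at 60 min, and 5.80 and 6.06 at 180 min. In Y721F cells it read 6.50 and 6.19, then 6.22 and 6.21, then 6.05 and 6.23, and at 180 min 5.85 and 5.66. Against 0 min the 180 min arrays measured -0.79 in WT (SE 0.28, adjusted p = 0.176) and -0.59 in Y721F (SE 0.28, adjusted p = 0.396). The WT difference passed with the replicate number as a block (adjusted p = 0.0165), as 1 of 1557 genes called. It was the 1 member whose WT arrays at 180 min both lay below those at 0 min. Over the 8 time course group means its correlation with the other members ran from r = 0.36 (H2-Aa) to 0.50 (Cd74), and over the 8 steady-state groups from 0.76 (Cd74) to 0.98 (H2-Eb1). These are descriptions over few group means that share arrays.

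In Y721F cells H2-Aa read 8.35 and 8.09 at 0 min, 6.80 and 7.76 at 20 min, 7.59 and 7.75 at 60 min, and 7.80 and 8.10 at 180 min. H2-Ab1 read 7.20 and 7.29, then 5.95 and 6.88, then 6.59 and 6.94, and at 180 min 6.63 and 7.07. Both were lowest at 20 min, on array I. Cd74 read 10.98 and 10.52 at 0 min, 10.13 and 10.14 at 20 min, 10.56 and 10.21 at 60 min, and 10.34 and 10.39 at 180 min, and H2-Eb1 stayed between 7.27 and 7.74. The medians against 0 min were -0.69 at 20 min, -0.35 at 60 min and -0.39 at 180 min, beside 0.02, -0.01 and -0.01 over all genes. In limma 0 of 6 fell at each time, where 0.00502%, 0.015% and 0.0903% of all genes fell at 20, 60 and 180 min. An unadjusted p under 0.05 was met by 3, 0 and 0 members, beside 1357, 1064 and 2656 of 19938 genes. Both arrays were below those at 0 min for 5, 3 and 5 of 6 genes, beside 11.4%, 15.5% and 22.8% of all genes.

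The difference of the responses, Y721F minus WT, was called for 0 of 6 members and for 0% of all genes at each time, and 0 members had an unadjusted p under 0.05. At 60 min it was above 0 for 5 of 6, from -0.15 (H2-DMa) to 0.46 (Cd74, SE 0.35). At 20 min it ran from -0.55 (H2-DMa) to 0.18 (Ciita) and at 180 min from -0.35 (H2-Ab1) to 0.20 (Ciita).

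**Figure D4:**
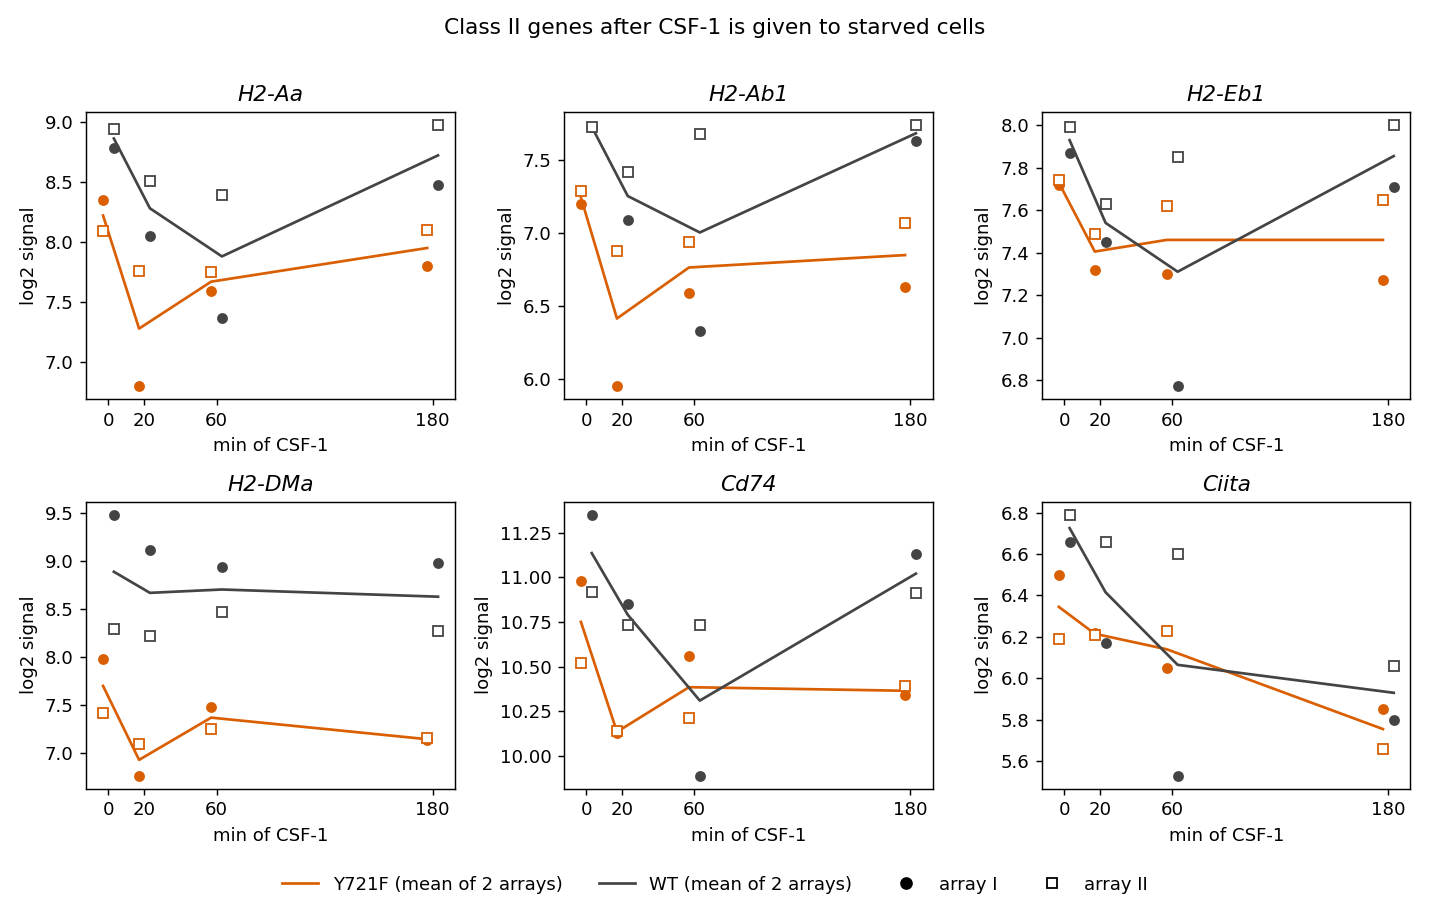
Log2 signal of the 6 genes against minutes of CSF-1 in Y721F and WT cells, with the points of each line set slightly apart; circles are array I, squares array II and lines the mean of both. The lowest WT point is array I at 60 min in 5 of the 6 panels. The Y721F points of H2-DMa lie below its WT points at each time, though none of these differences was called.

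H2-DMa was the one member whose lines did not overlap at any time of the time course. It read 7.98 and 7.41 in Y721F cells at 0 min, against 9.48 and 8.29 in WT cells. At 20 min it read 6.76 and 7.09, against 9.11 and 8.22, at 60 min 7.48 and 7.25, against 8.93 and 8.47, and at 180 min 7.13 and 7.15, against 8.98 and 8.27. The lines never overlapped, and WT array I stood above WT array II at each time. The differences of Y721F minus WT were -1.19, -1.74, -1.33 and -1.48, with adjusted p of 0.293, 0.0688, 0.2 and 0.144, and none passed. With the replicate number as a block H2-DMa passed at 20, 60 and 180 min (adjusted p = 0.00814, 0.0371 and 0.0204), although deviations of same-numbered arrays correlated only by 0.056 to 0.29 between the lines. Without the block, 0 of the 6 genes were called between the lines at 20, 60 or 180 min, beside 0.537%, 0.406% and 0.446% of all genes lower. The members not overlapping below WT were 4, 1 and 5 of 6, beside 16.7%, 17.5% and 22.1% of all genes. Those with an unadjusted p under 0.05 were 4, 1 and 4, beside 2485, 2023 and 1712 of 19938 genes. Medians were -0.75, -0.07 and -0.71, beside 0.04, -0.01 and -0.03 over all genes.

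The 2 arrays of a group disagreed more for these genes than for most others. The pooled within-group SD of H2-Aa in the steady-state experiment was 0.96, above that of 99.9% of genes, where the median gene had 0.16. H2-Ab1 had 0.90, also at the 99.9th percentile, H2-Eb1 0.68 (99.7th), Cd74 0.48 (99th), Ciita 0.35 (96.7th) and H2-DMa 0.33 (95.7th). In the time course the members lay between the 86.6th (Cd74) and the 96.4th percentile (H2-DMa). The members also moved as one between replicates of starved cells. Array I exceeded array II for 6 of 6 genes in starved 3ABY721 and in starved WT cells, by a mean of 1.04 and 1.63, while array II exceeded array I for 6 of 6 in starved 3AB and for 5 of 6 in starved Y721F cells. The mean of 9 macrophage markers in starved WT cells was 11.88 on array I and 12.14 on array II, and that of 10 dendritic cell markers 5.74 and 5.70. Their part in the gap was not tested.

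The 6 genes followed a shared profile over the 16 groups, each centred within its experiment. Pairwise r had a median of 0.84 and ran from 0.61 (H2-DMa with Cd74) to 0.98 (H2-Aa with H2-Ab1). Among 6222 other genes whose group means spanned at least 1 log2 unit, Tpd52 was most like their mean profile (r = 0.951), followed by Slc2a6 (0.942), a glucose transporter family member, Glipr1 (0.937), Tnfrsf14 (0.932) and the integrin chain Itgb7 (0.931). These correlations are over 16 group means from the same arrays.

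The other class II loci were not called. Of 4 measured, H2-Oa and H2-Ob, which encode the chains of the H2-O modulator of peptide exchange, H2-Eb2 and H2-Ea, 0 were called in any of the 12 steady-state comparisons between groups. Between starved Y721F and starved WT cells their median was 0.20, where that of the members was -1.99. H2-Oa lay between 5.16 and 7.57 on the arrays, and H2-Eb2 was above the 20th percentile on 11 of 32 arrays. H2-Ob lay between 5.15 and 5.90, H2-Ea between 4.75 and 5.45 and H2-Eb2 between 4.51 and 5.29. For H2-Ob, H2-Ea and H2-Eb2 signals that low leave little to compare, so their lack of calls says little. H2-Oa reached signals like those of Ciita, which lay between 5.51 and 7.31, and was still not called.

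Of 8 genes measured for peptide processing and class II turnover, 2 were lower in starved Y721F than in starved WT cells, beside 7.66% of all genes. Marchf1, the ubiquitin ligase that removes class II from the surface, measured -0.88 (SE 0.15), and Ctss, the cathepsin that trims the invariant chain, -0.64 (SE 0.12). In WT cells Marchf1 alone of the 8 fell in grown against starved cells (-0.59), beside 3.01% of all genes. In starved 3AB against starved Y721F cells Marchf1 (1.15) and Ctss (0.85) were higher, and in grown cells these and Ifi30 (0.70), the lysosomal thiol reductase. Marchf1 was also higher in starved 3AB than in starved 3ABY721 cells (0.83). The list median between starved Y721F and WT cells was -0.29.

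Few of the factors that bind the X and Y boxes were called in any comparison. Of 7 measured (Rfx5, Rfxap, Rfxank, Nfya, Nfyb, Nfyc, Creb1), 0 were called in starved Y721F against starved WT cells, and 0 in grown against starved cells of any line. Rfxap, a subunit of the RFX complex, was higher in starved 3AB than in starved Y721F cells (0.66, SE 0.16).

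Of 11 measured regulators upstream of Ciita, Irf8, an interferon regulatory factor of the myeloid lineage, showed the widest line difference. It was lower in Y721F than in WT cells when grown (-2.10, SE 0.22, adjusted p = 2.59e-05) and when starved (-1.65, adjusted p = 0.000206), and higher in 3AB than in Y721F cells by 2.11 and 1.63. In grown against starved cells Irf8 fell in WT (-0.83) and in Y721F (-1.28). Ifngr1, the ligand-binding chain of the interferon-γ receptor, fell in grown WT (-1.08), Y721F (-0.74) and 3ABY721 cells (-0.83). Jak2, a kinase of that receptor, was lower in Y721F than in WT cells, grown (-0.68) and starved (-0.84). Irf1 fell in grown 3ABY721 cells (-0.90) and was higher in 3AB than in Y721F cells, grown (0.79) and starved (0.78). Prdm1, known as a repressor of Ciita, fell in WT cells at 60 min (-1.48, SE 0.20) and 180 min (-1.01), and in grown against starved WT cells (-1.48). At 60 min it was higher in Y721F than in WT cells (1.16). Against starved cells 3 of 11 were lower in grown WT, 2 in grown Y721F, 2 in grown 3ABY721 and 0 in grown 3AB cells, beside 3.01%, 1.46%, 0.672% and 0.256% of all genes.

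Genes that interferon-γ induces were called in the steady-state comparisons with Y721F cells. Of 9 measured, 5 were lower in starved Y721F than in starved WT cells: Gbp3 (-3.09, SE 0.28), the chemokine Cxcl10 (-2.94, SE 0.37), Gbp7 (-1.63), Irgm1 (-1.46) and Gbp5 (-0.97), beside 7.66% of all genes. In grown cells Cxcl10 (-3.08), Gbp3 (-2.49) and Gbp7 (-1.37) were lower and Ido1 was higher (1.96). In grown against starved cells 0 of 9 were called in any line. In starved 3AB against starved Y721F cells 7 of 9 were higher, Cxcl10 by 3.27, beside 5.08% of all genes.

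Of 10 genes measured for MHC class I presentation, 7 were lower in starved Y721F than in starved WT cells, beside 7.66% of all genes, and 1 was higher. Tap1, a subunit of the peptide transporter, measured -1.69 (SE 0.16), the transporter's partner Tapbp -1.08 and the immunoproteasome subunit Psmb9 -1.06, while Nlrc5, the class I counterpart of Ciita, was higher (0.68). In grown against starved WT cells 3 fell, beside 3.01% of all genes: Psmb9 (-0.85), Tapbp (-0.77) and Tap1 (-0.61). In starved 3AB against starved Y721F cells 7 were higher, Psmb8 by 1.69 and Tap1 by 1.64, beside 5.08% of all genes.

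Macrophage markers differed beside the class II genes. Of 9 measured, 4 were lower in starved Y721F than in starved WT cells, Fcgr1 (-4.38), Mertk (-1.75), Cd14 (-1.02) and Itgam (-0.85), beside 7.66% of all genes, while Csf1r measured -0.24 (adjusted p = 0.173). Their mean was 10.89 and 11.07 in starved Y721F cells, against 11.88 and 12.14 in starved WT cells, and 10.21 and 10.23 in grown Y721F cells, against 11.53 and 11.57 in grown WT cells. In grown against starved WT cells 3 fell, beside 3.01% of all genes: Mertk (-1.79), Adgre1 (-0.79) and Lyz2 (-0.70). Of 7 fibroblast markers Pdgfra was higher in starved Y721F than in starved WT cells (1.50), with Dcn at or under 4.92 on all arrays. Of 10 dendritic cell and 6 B cell markers, 0 were called between starved Y721F and WT cells or in grown against starved cells of any line. However, 1 dendritic cell marker was higher in starved 3AB than in starved Y721F cells, beside 5.08% of all genes. In grown 3AB against grown Y721F cells 1 was higher, beside 4.65% of all genes, and 1 was lower. Starved 3AB against starved 3ABY721 cells also had 1 higher, beside 0.246% of all genes. The dendritic cell markers averaged 5.70 and 5.82 in starved Y721F cells, against 5.74 and 5.70 in starved WT cells, the B cell markers 5.18 and 5.11, against 5.17 and 4.92, and the fibroblast markers 6.72 and 6.84, against 6.33 and 6.13. The part of these genes in the class II differences was not tested.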

How the data were processed

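Affymetrix Mouse Gene 1.0 ST arrays measured total RNA of 32 samples. The authors deposited log2 signals for 35556 probe sets, a scale read from the values. The deposited values came normalized, by a method and on a build not given in the sources used here. Replicates are biological, per the series' design text. Probe sets naming 1 gene (21789) were used, and 1621 naming several were left out. The brightest stood for each gene. The 8 groups of each experiment were fitted with limma 3.58.1 (R 4.3.3), with Benjamini-Hochberg adjustment over 19938 genes, in 27 comparisons. The SE of a gene draws on its spread over all 8 groups, also where the groups compared spread less or more. Labels give arrays only a number. In the time course deviations of same-numbered arrays correlated between 0.353 and 0.734 within a line, and only between 0.056 and 0.29 between the lines. A fit with that number as a block is given where it changes a call. The correlations back it less for comparisons between lines. With 2 arrays per group, their number limits the precision. Promoters were searched in Python 3.11.15. On simulated data the fit was tested before use. The members and lists were chosen with earlier results of these data known. Named genes are the members, up to 4 called genes of a list per comparison with the largest change, and the 5 genes most like the members. Marker genes were named after their values were seen.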

Additional observations from a re-analysis of the deposited data

Results flagged for a closer look

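The gap of Y721F minus WT in Cd74 of starved cells differed between the experiments by -2.08 (SE 0.50, adjusted p = 0.035), being -2.47 in the steady-state experiment and -0.39 at 0 min of the time course. Cd74 lost its call in 6 of the 8 fits that left out 1 of these arrays, at values from -2.32 to -1.64, and under quantile normalization 0 members were called. The comparison was chosen after the values had been seen. The gap was below 0 in both experiments.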

How the results depend on the processing

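The alternatives were quantile normalization, median centring, leaving out dim genes, the mean of a gene's probe sets, all 32 arrays in one fit, the replicate number as a block, and leaving out each array. They left the sign of every called member value as it was. Of 1740 recomputed member values 68 changed sign, none of them called before or after, 38 lost their call and 32 gained one. In the steady state deviations of same-numbered arrays correlated between 0.042 and 0.28 within a line and between -0.328 and 0.283 between lines. With the replicate block the members called became 5 in grown against starved WT cells (3 without it), 5 in starved Y721F against WT cells (4 without it, with Ciita gained at an adjusted p of 0.0474), 2 in 3AB and 1 in 3ABY721 cells, 1 in WT at 60 min and at 180 min, and 1, H2-DMa, in Y721F against WT at 20, 60 and 180 min, with adjusted p of 0.00814, 0.0371 and 0.0204. In one fit of 32 arrays they became 1 in Y721F against WT at 20 and 180 min, 1 in grown against starved 3AB cells, 1 in grown Y721F against WT cells (2 otherwise), and 4 in grown against starved WT cells, where H2-DMa was lost (adjusted p = 0.0541) and H2-Aa and Cd74 gained. Quantile normalization, median centring and the filter on dim genes each called 5 in starved Y721F against WT cells, Ciita being added. Over all genes they called 1705, 2706 and 2207 there. The filter called 4 in grown against starved WT cells, Cd74 being added, with 1108 genes called in all. Over all genes the block called 1333 in grown against starved WT, 222 in 3AB and 429 in 3ABY721 cells. It called 2250 in starved Y721F against WT cells, and 745 and 1557 in WT at 60 and 180 min. Between the lines it called 513, 387 and 432 at 20, 60 and 180 min. The fit of 32 arrays called 691 in grown against starved WT and 53 in 3AB cells. Between Y721F and WT that fit called 1393 in grown cells and 401 and 348 at 20 and 180 min. For the gap between experiments quantile normalization gave 0 and median centring 2 members. The cutoff in the series' text, an unadjusted p under 0.05 with a fold above 1.5, gave 4 members in WT at 60 min and 1 at 180 min, and 3 in Y721F at 20 min. Between Y721F and WT it gave 1, 4, 1 and 4 at 0, 20, 60 and 180 min. In grown against starved cells it gave 6 in WT, 2 in Y721F, 2 in 3ABY721 and 6 in 3AB, and 1 in either difference of growth effects. It gave 1 in starved 3AB against 3ABY721 and 1 in grown 3ABY721 against WT cells. Many of the 19938 genes met the unadjusted p alone, without the fold. In grown against starved cells these were 3997 in WT, 4285 in Y721F, 2431 in 3ABY721 and 2394 in 3AB. In the time course they were 2361 and 2918 in WT at 60 and 180 min and 1357 in Y721F at 20 min. Between Y721F and WT they were 1921, 2485, 2023 and 1712 at 0, 20, 60 and 180 min. With each array left out in turn, the members called ran from 0 to 5 in WT at 60 min and in grown against starved WT cells, from 3 to 6 in starved and from 1 to 1 in grown Y721F against WT cells, from 2 to 5 in starved and from 1 to 1 in grown 3AB against Y721F cells, from 0 to 1 in grown 3AB against 3ABY721, in grown 3ABY721 against WT and in the difference of growth effects of Y721F and WT, and from 0 to 3 in the gap between experiments. The causes of these shifts were not tested, beyond the fewer arrays of the fits that leave one out. An array left alone in its group was assumed to vary like the others.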
